A study of Mus musculus with 12 samples.

Results

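The control arm of this RNA-seq series comprised 6 libraries, siNC replicates 1 to 6, out of 12 libraries in all, and they were identified by the column names of the deposited count table. They represent primary oligodendrocytes (OLs) of C57BL/6J mice that received a scrambled siRNA, given as NC in the labels, and were harvested 48 h later. The methods of the study list siRNAs, but speak of an interference plasmid for the RNA-seq cells, and the labels are followed here. The other 6 libraries received an siRNA against Egr2 and contribute no value here. According to the methods of the study, newborn cortex freed of meninges and vessels was the source, and its O4+ immature OLs were captured with anti-O4 microbeads, grown with PDGF-AA, and matured with insulin, triiodothyronine and ciliary neurotrophic factor (CNTF) before transfection. The labels instead give the medial prefrontal cortex as the source. No label states that the 6 libraries came from separate cultures or litters, so the spread between them may be technical, and none of the libraries is labelled as untransfected.

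OLs arise from dividing precursors that carry the PDGF receptor Pdgfra and the proteoglycan NG2 (Cspg4). Precursors that commit to differentiation switch on genes such as Gpr17, Bcas1 and Enpp6, and mature cells make the proteins and lipids of myelin, among them Mbp, Cnp and Mog. The O4 antibody recognises sulfatide, a myelin lipid that appears in late precursors and is kept afterwards. Astrocytes, marked by the intermediate filament Gfap and the water channel Aqp4, descend from the same neural progenitors. Bulk RNA-seq sums over every cell in the dish, so a low level of a marker may reflect fewer cells of a type or less RNA per cell, and these cannot be told apart.

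The libraries held 28682946 to 39383014 counts, with replicate 6 the deepest and the other 5 at 32460116 or less. Levels are given as CPM, counts scaled to a library of 1000000 after TMM normalization of the 6 libraries, as mean ± SD (n = 6). Levels of different genes were compared as CPM per kilobase of exon, and CPM itself was used between genes only for the share of counts that a gene takes. A gene was taken as detected when it had at least 10 counts in each of the 6 libraries. This held for 15839 genes, among them 13161 of the 20410 protein-coding genes. The median detected protein-coding gene lay at 6.60 CPM per kilobase and the top 10% began at 34.9. Across detected genes, the log2 CPM of library pairs correlated with Pearson's r between 0.9871 and 0.9925, a description over genes that are not independent replicates.

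The label was first checked against 7 defining genes. Olig2, the transcription factor of the OL lineage, was measured at 655 to 699 CPM (median 673), or 267 ± 6.75 CPM per kilobase. Mbp, the basic protein of compact myelin, reached 1722 to 2137 CPM (median 1940.5), or 229.9 ± 16.7 CPM per kilobase. Pdgfra was lower, with 497 to 599 CPM (median 561), or 55.4 ± 3.84 CPM per kilobase. All 3 lineage markers were above the median gene in every library.

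The astrocyte marker Gfap was higher than any of them. It was found at 5325, 4843, 4834, 5080.3, 5377 and 5044 CPM in replicates 1 to 6, on average the largest share of counts of any nuclear protein-coding gene, although Scd2 had more in replicate 4 (7107 CPM). Per kilobase it reached 1205, rank 13 or 14 of 13161 in each library, and on average behind 11 mitochondrial genes, the tubulin Tuba1a and the elongation factor Eef1a1. The ratio of Gfap to Mbp per kilobase was 5.26 ± 0.333, from 5.05 to 5.92. Aqp4 was measured at 959 to 1099.9 CPM (median 993), or 162 ± 8.47 CPM per kilobase.

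Col1a1, a fibrillar collagen of fibroblasts, amounted to 269 to 456 CPM (median 351). By contrast, Aif1, which encodes the microglial protein Iba1, had no count in any of the 6 libraries, where 3 counts would equal 0.0764 to 0.104 CPM. Such a limit covers counting error only. Ordered by CPM per kilobase, the markers ran Gfap, Olig2, Mbp, Aqp4, Pdgfra, Col1a1 and Aif1, and neighbours in this order did not overlap across the libraries except Pdgfra (49.6 to 59.7) and Col1a1 (41.0 to 69.5), of which Pdgfra was the higher in 3 of 6. The order depends on the length assigned to a gene: with the longest transcript in place of all exons, Mbp rose to 406 and stood above Olig2. The label of an OL culture therefore holds for the lineage genes, but the same libraries carried Gfap at a higher level, and they are called siNC cultures below.

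**Figure D1:**
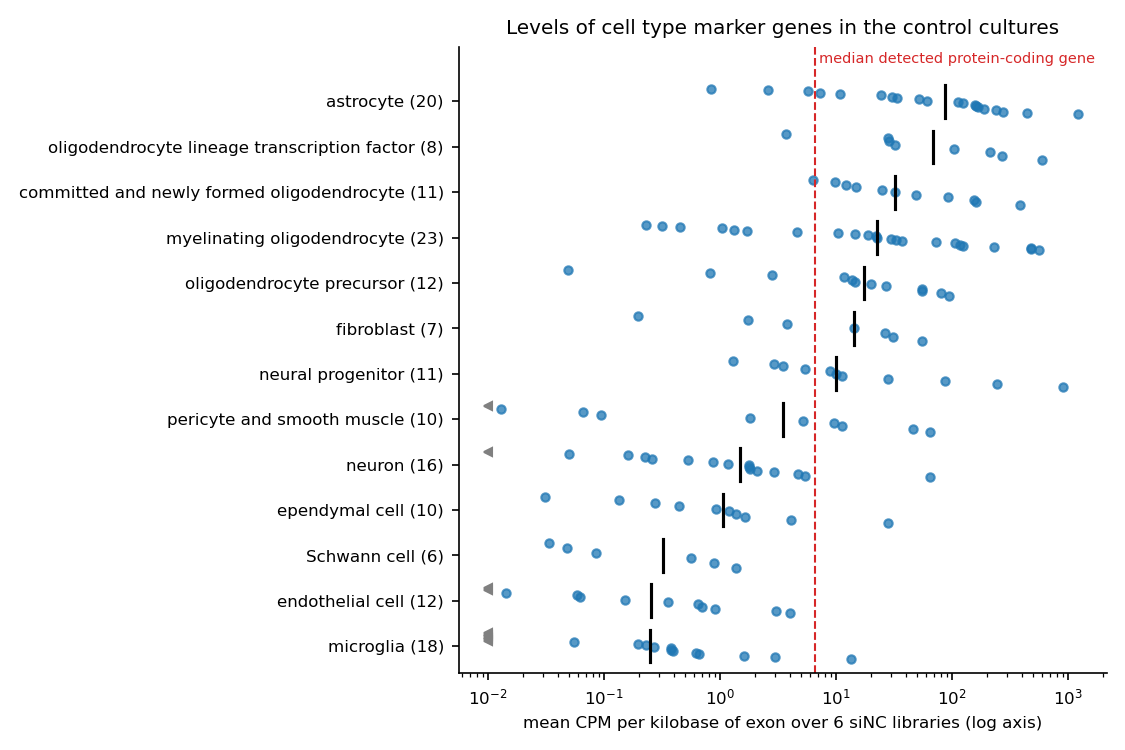
Mean CPM per kilobase over the 6 siNC libraries (log axis) for each gene of 13 cell type lists, with the number of genes in parentheses. Points are genes and black bars list medians. Grey triangles are genes with no count or a level too low for the axis, drawn at its left end. The dashed line is the median detected protein-coding gene at 6.60. The astrocyte list has its median at 86.8 and the microglia list at 0.248.

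Most genes of precursors, newly formed OLs and myelinating OLs were detected. The 8 transcription factors of the lineage were all detected, and 7 of them lay above the median gene, with a list median of 67.9 CPM per kilobase. Olig1 led with 1292 ± 41.5 CPM, followed by Olig2, then Sox10, the activator of myelin genes, with 644 ± 22.2 CPM, and Sox8 with 322 ± 8.77 CPM. Olig1 exceeded Olig2 per kilobase by 2.24 ± 0.0404 times. Zfp488 (135 to 148 CPM), Nkx6-2 (51.4 to 57.8 CPM) and Zfp24 (158 to 195 CPM) were lower per kilobase, and Zfp536 was the lowest at 34.0 ± 5.40 CPM. This list was also the cell type list with the smallest spread, its summed level varying by a coefficient of variation (CV) of 1.99%.

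Of the 12 precursor genes, 11 were detected and 9 exceeded the median gene, with a list median of 17.3 CPM per kilobase. Lhfpl3, a membrane protein enriched in precursors, was the highest per kilobase on average, with 398, 412, 201, 211, 384 and 205 CPM in replicates 1 to 6, so that replicates 1, 2 and 5 lay above the rest without overlap. The phosphatase Ptprz1 came next with 79.4 ± 4.68 CPM per kilobase, ahead of Pdgfra and the AMPA receptor auxiliary subunit Cacng4 (54.9 ± 1.89 CPM per kilobase). The transcription factor Sox6 (400.4 ± 17.9 CPM) and the proteoglycan Cspg4 (238 ± 15.3 CPM) followed, together with C1ql1 (21.6 ± 1.72 CPM) and Vcan (168 ± 10.2 CPM). At the low end, Pcdh15 was measured at 66.9 ± 7.21 CPM, Matn4 at 4.23 ± 0.638 CPM and Susd5 at 0.201 ± 0.0827 CPM.

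The 11 genes of committed and newly formed OLs were all detected, 10 above the median gene, with a list median of 32.3 CPM per kilobase. Bcas1, a marker of cells starting to myelinate, was measured at 1360.4 to 1517 CPM (median 1497). Gpr17, the receptor of the committed stage, reached 792 to 887 CPM (median 844) and Enpp6, a choline phosphodiesterase of new OLs, 527 to 667 CPM (median 606). The kinase Fyn (669.7 ± 22.2 CPM) overlapped Gpr17 per kilobase, although Gpr17 was the higher in 6 of 6 libraries. The remaining genes were Itpr2 (371 ± 25.4 CPM), Cnksr3 (188 ± 9.48 CPM), Nkx2-2 (92.9 ± 2.18 CPM), the Wnt effector Tcf7l2 (85.8 ± 3.15 CPM), the sialidase Neu4 (56.9 ± 2.40 CPM) and the ligand Bmp4 (14.2 ± 0.968 CPM). The long noncoding RNA 9630013A20Rik was the most variable of them, from 27.98 to 64.7 CPM.

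The myelinating list of 23 genes was split by level. Cldn11, the tight junction protein of myelin, was the highest per kilobase at 562 ± 58.8 CPM per kilobase, the phosphodiesterase Cnp reached 477 ± 30.9 CPM per kilobase, and Mbp was below both in every library. Cldn11 amounted to 905 to 1174 CPM (median 1039.5) and Cnp to 1574 to 1889 CPM (median 1755). In total, 16 of the 23 genes exceeded the median gene and 9 were in the top 10%. The lowest per kilobase were Aspa, the aspartoacylase of mature OLs, at 1.36 ± 0.526 CPM, and the protease Klk6 at 0.482 ± 0.28 CPM.

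Some other genes of mature OLs were also low, and these were singled out after their values had been seen. The connexin Gjb1 was measured at 1.34 to 2.28 CPM, Hapln2, a link protein of nodes, at 3.36 to 5.01 CPM, Ermn at 3.09 to 7.17 CPM and Ppp1r14a at 0.331 to 1.11 CPM. Mog, on the outer face of myelin, reached 30.4 to 34.3 CPM (median 32.5), Mal was at 29.04 ± 2.99 CPM and Opalin at 65.7 ± 2.96 CPM, and all 3 were above the median gene per kilobase. Per kilobase, Bcas1 exceeded Mog by 20.5 ± 1.15 times. The myelinating list thus ranged from genes in the top 10% to 7 genes below the median gene.

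**Figure D2:**
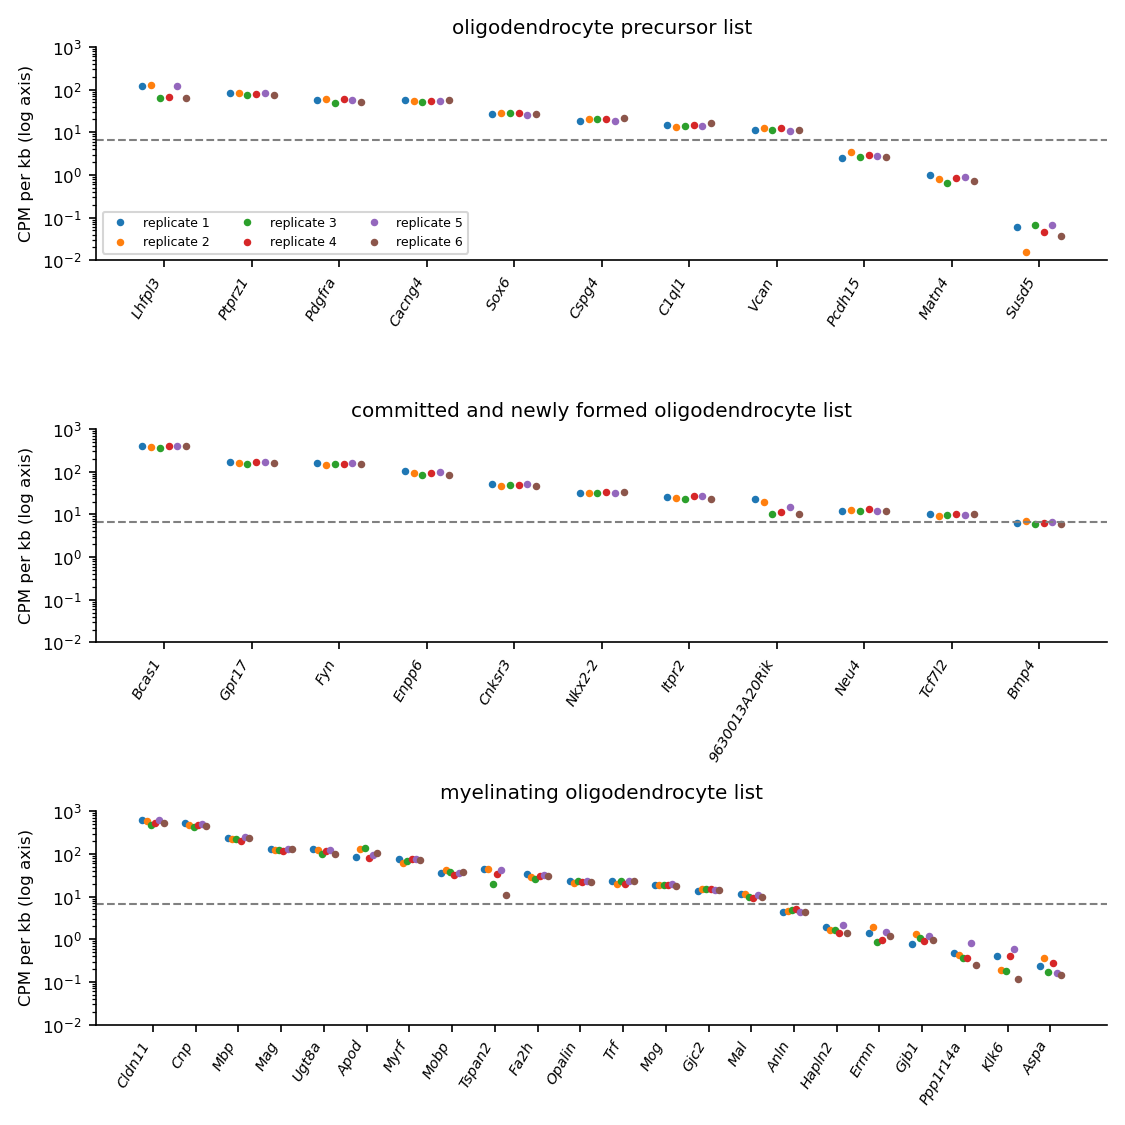
CPM per kilobase (log axis) of genes of the precursor, the committed and newly formed, and the myelinating OL lists in each of the 6 siNC libraries (colours), with the median detected protein-coding gene at 6.60 as a dashed line. Most points of a gene sit close together, and the myelinating list runs from Cldn11 at 562 down to Aspa at 0.228.

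Astrocyte genes formed the cell type list with the highest median, 86.8 CPM per kilobase. All 20 were detected, 17 were above the median gene and 12 were in the top 10%. After Gfap came Atp1b2, a sodium pump subunit, with 1802 ± 20.1 CPM and a CV of 1.11%, the secreted protein Sparcl1 with 800.0 ± 15.4 CPM, and glutamine synthetase (Glul) with 802 ± 33.6 CPM. The glutamate transporters Slc1a3 (1058 ± 38.2 CPM) and Slc1a2 (793 ± 37.9 CPM), chosen here after their values were seen, were high as well. The 3 genes below the median gene were Ntsr2 (17.7 ± 3.48 CPM), the angiotensinogen gene Agt (4.87 ± 0.641 CPM) and Gjb6, a connexin of mature astrocytes (2.22 ± 0.421 CPM). Some astrocyte genes, Glul among them, are also transcribed by OL lineage cells, so the list does not count astrocytes.

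Genes of reactive glia were high too. All 15 were detected, 12 above the median gene, with a list median of 35.9 CPM per kilobase. Serpina3n, a protease inhibitor, was measured at 1873 to 1979.5 CPM (median 1944), the filament Vim at 1719 ± 77.1 CPM, the iron-binding protein Lcn2 at 637 ± 53.3 CPM and complement C3 at 608 ± 63.5 CPM. Aspg (15.6 ± 1.53 CPM) and the chemokine Cxcl10 (11.5 ± 1.49 CPM) were the lowest. A2m, a secreted protease inhibitor that was in no list, was among the 15 genes with the highest CPM, at 2091 ± 129 CPM.

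The progenitor genes were led by Fabp7, a fatty acid binding protein of radial glia, with 1128 ± 49.7 CPM, the transcription factor Sox2 with 506 ± 26.5 CPM and the filament Nes with 561 ± 64.8 CPM. All 11 were detected and 7 exceeded the median gene. Bulk levels do not tell which cells made these transcripts, so the list does not count progenitors. Hopx, a homeodomain protein, was at 42.7 to 51.3 CPM in 5 libraries and at 18.5 CPM in replicate 4. Lhx2 (44.3 ± 4.62 CPM), Nr2e1 (33.1 ± 1.92 CPM), Prom1 (24.8 ± 2.22 CPM), Emx2 (16.2 ± 2.68 CPM), Hes5 (15.3 ± 2.81 CPM), Pax6 (15.2 ± 1.48 CPM) and Hes1 (5.99 ± 1.17 CPM) made up the rest of the list.

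Microglia were close to the limit of what these libraries could show. Of the 18 genes, 7 were detected, 13 had a mean under 1 CPM, and Aif1, Cx3cr1, Itgam, Fcrls and Siglech had no count in any library. The summed level of the list was 38.4 ± 3.56 CPM, and 1 gene exceeded the median gene. Cd68 was measured at 3.74 ± 1.06 CPM, the protease Ctss at 2.18 ± 0.788 CPM and the microglial membrane protein Tmem119 at 1.52 ± 0.421 CPM.

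Neuronal genes were mostly low, with a list median of 1.47 CPM per kilobase and 1 of 16 genes above the median gene. That gene was Tubb3, a tubulin of young neurons, at 121 ± 7.04 CPM, followed per kilobase by Dcx (68.9 ± 14.1 CPM), Syp (24.3 ± 1.65 CPM) and Elavl4 (15.7 ± 2.45 CPM). The vesicular glutamate transporter Slc17a6 had no count and Slc17a7 was at 0.27 ± 0.237 CPM. Ependymal genes were low except Foxj1, the regulator of motile cilia, at 73.6 ± 6.78 CPM. The other 9 ependymal genes ranged from 0.315 (Tmem212) to 5.59 (Rsph1) CPM.

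Among vascular genes, Cldn5 and Tek of the endothelium had no count, Pecam1 was at 0.0894 ± 0.129 CPM and Cdh5 at 2.95 ± 0.507 CPM. Kdr (27.3 ± 3.36 CPM), Slco1a4 (25.9 ± 3.35 CPM) and Vwf (14.5 ± 1.36 CPM) were the highest per kilobase, and Flt1, Egfl7, Emcn, Esam and Ly6c1 lay between 0.103 and 2.30 CPM. No endothelial gene exceeded the median gene per kilobase. The pericyte and smooth muscle list included 4 genes above it. These were the contractile genes Tagln (129 ± 11.2 CPM) and Acta2 (100.1 ± 7.15 CPM), vitronectin (Vtn, 22.7 ± 4.46 CPM) and Pdgfrb (52.4 ± 7.17 CPM), while Kcnj8, Abcc9, Myh11 and Higd1b were each at 0.503 CPM or less. Notch3 was measured at 41.9 ± 3.97 CPM and Rgs5 at 8.22 ± 1.1 CPM. In the Schwann cell list, Foxd3 was at 0.111 ± 0.133 CPM and Ncmap at 0.19 ± 0.21 CPM, while Pmp2 (1.26 ± 0.607 CPM), Prx (3.11 ± 0.795 CPM) and the ligand Dhh (6.09 ± 2.61 CPM) were higher.

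Fibroblast genes formed the most variable cell type list apart from the low Schwann cell list. Their summed level was 1088 ± 187 CPM, with a CV of 17.2%, from 818 CPM in replicate 4 to 1383 CPM in replicate 2. Col1a1, Col1a2 (241 to 419 CPM) and Col3a1 (239 to 376 CPM) were each lowest in replicate 4 and highest in replicate 2, as was decorin (Dcn, 60.7 to 110.0 CPM). Lum reached 16.3 CPM in replicate 2 against 5.50 CPM in its lowest library, replicate 5. Dpt was low at 0.335 ± 0.123 CPM, and the transporter Slc6a13 was at 5.06 ± 1.58 CPM.

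Genes of cell division were expressed throughout. The 13 mitosis genes and the 12 DNA replication genes were all detected, with medians of 13.9 and 16.1 CPM per kilobase. Top2a, which untangles DNA before mitosis, was measured at 283 to 326 CPM (median 300.4), and the proliferation marker Mki67 at 296 to 350.5 CPM (median 322). Ccna2 (101 ± 7.91 CPM) and Plk1 (47.9 ± 2.30 CPM) followed per kilobase, and Bub1 (26.5 ± 1.77 CPM) and Cenpe (54.9 ± 4.91 CPM) were the lowest. Of the replication genes, Pcna, the sliding clamp, was the highest with 159 ± 11.5 CPM, and Tyms, which makes thymidylate, the lowest per kilobase with 17.5 ± 0.921 CPM. The 6 Mcm helicase genes lay between 49.1 and 89.7 CPM, Rrm2 at 86.2 ± 3.46 CPM, Pola1 at 33.9 ± 2.17 CPM, Cdc45 at 16.7 ± 1.90 CPM and Gins2 at 12.8 ± 1.54 CPM.

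Inhibitors of the cell cycle were present alongside. All 7 exceeded the median gene, led by Cdkn1a (p21) with 225 ± 31.6 CPM. Cdkn1b (p27), which accumulates when precursors leave the cycle, was at 61.7 to 119.5 CPM (median 93.5), and Cdkn2c at 50.3 ± 6.56 CPM. Both had their lowest value in replicate 6. Cdkn2d (37.8 ± 1.18 CPM), Cdkn1c (30.02 ± 1.61 CPM), Cdkn2b (21.04 ± 2.39 CPM) and Cdkn2a (9.88 ± 1.16 CPM) completed the list.

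Myelin is rich in cholesterol and galactolipids, and the genes that make them were mostly among the higher ones. All 15 cholesterol synthesis genes exceeded the median gene and 12 were in the top 10%, with a list median of 48.5 CPM per kilobase and a summed level of 5545 ± 90.9 CPM (CV 1.64%). Hmgcs1, which makes HMG-CoA, led with 1455 to 1766 CPM (median 1612), followed per kilobase by Cyp51 (570.0 ± 16.6 CPM), with Sqle at 433 ± 18.3 CPM. Mvk (72.5 ± 4.11 CPM) was the lowest. Dhcr7, which makes the final product, was at 185 to 204 CPM in 5 libraries and at 101 CPM in replicate 5.

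The galactolipid and sphingolipid list had all 9 genes above the median gene. Ugt8a, which forms galactosylceramide, was measured at 458 to 609 CPM (median 538), and Gal3st1, which sulfates it to sulfatide, the antigen of the O4 selection, at 74.2 to 81.3 CPM (median 77.1). The fatty acid hydroxylase Fa2h was at 90.3 ± 8.13 CPM, Cers2 at 171 ± 5.96 CPM and Elovl7 at 114 ± 8.78 CPM. Degs1 was at 108 to 119 CPM in 5 libraries and at 68.2 CPM in replicate 5. Elovl1 (73.3 ± 3.45 CPM), Sptlc2 (71.6 ± 1.71 CPM) and Sptlc1 (50.7 ± 2.32 CPM) completed the list.

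Glycolytic genes had a list median of 52.3 CPM per kilobase, with 17 of 19 above the median gene. Pgk1 (549 ± 14.6 CPM), Pkm (957 ± 34.7 CPM), Aldoc (513 ± 22.4 CPM) and Aldoa (430.2 ± 53.6 CPM) were the highest per kilobase. Gapdh, often used as a reference gene, was listed at only 19.2 ± 2.75 CPM, and Pgk1 exceeded it per kilobase by 53.6 ± 7.63 times. However, 24.7% of the 50-base windows of Gapdh transcripts also occur in other genes, and the near-identical copy Gapdh-ps15 was listed at 46.8 to 55.0 CPM, so the counts of both are uncertain. All Gapdh entries summed to 70.4 to 83.8 CPM. Pgk1 itself shares 53.9% of its windows. The lactate exporter Slc16a3 was at 1.18 ± 0.136 CPM.

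The 9 genes of the list of receptors for factors of the medium were all detected, and 5 of them exceeded the median gene. Besides Pdgfra, the thyroid hormone receptor Thra was at 307 ± 12.9 CPM and Thrb at 17.5 ± 1.89 CPM, a ratio of 28.4 ± 3.75 per kilobase. Insr, the insulin receptor, was measured at 53.8 ± 5.99 CPM and Igf1r at 97.5 ± 5.61 CPM. Of the 3 subunits that bind CNTF, Cntfr was at 35.5 ± 2.86 CPM and Lifr at 50.4 ± 1.27 CPM, while Il6st was at 248, 245, 238, 384, 239.7 and 379 CPM in replicates 1 to 6, higher in replicates 4 and 6 than in the rest. The glucocorticoid receptor Nr3c1 (81.1 ± 4.98 CPM) exceeded the mineralocorticoid receptor Nr3c2 (5.69 ± 1.25 CPM) by 12.6 ± 3.14 times per kilobase, from 10.1 to 18.7.

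Egr2, a zinc finger transcription factor of myelinating glia and the gene that the study knocks down in its other arm, was low in these controls. It was measured at 5.13, 4.53, 5.87, 6.97, 4.14 and 7.51 CPM in replicates 1 to 6, or 1.68 ± 0.396 CPM per kilobase, and ranked between 10172 and 11207 of 13161 protein-coding genes. The gene (GENCODE M21, ENSMUSG00000037868.15, chr10:67535475-67542188, + strand, GRCm38) was thus below the median gene in every library. Of the other immediate early genes, 10 were higher per kilobase on average, led by Jun at 233 ± 17.4 CPM, Fos at 129 ± 5.79 CPM, Junb at 65.7 ± 5.98 CPM and Egr1 at 99.7 ± 12.3 CPM. Egr3 was at 8.26 ± 1.25 CPM, and Fosb (3.65 ± 1.54 CPM) was the only one below Egr2 per kilobase. Ier2, Btg2, Dusp1, Nr4a1 and Arc lay between 12.1 (Arc) and 30.8 (Btg2) CPM.

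Matrix genes were all above the median gene, 19 of 19, with a list median of 45.0 CPM per kilobase. Spp1 (204 to 403 CPM), the lecticans Ncan (1226 ± 60.9 CPM) and Bcan (651 ± 69.4 CPM) and the collagen-binding protein Sparc (557 ± 38.4 CPM) led per kilobase, and Lamb2 and Vcan were the lowest. Tnr, a tenascin made by OL lineage cells that was in no list, was among the 15 genes with the highest CPM at 2125 ± 98.0 CPM. By contrast, interferon response genes were low, with a list median of 0.597 CPM per kilobase, 9 of 11 detected and 3 above the median gene. Ifi27 (23.7 ± 2.03 CPM) and Bst2 (7.37 ± 1.06 CPM) were among those 3, and Ifit3 was at 6.02 ± 1.18 CPM. Isg15, Ifit1, Irf7, Rsad2, Usp18, Mx1 and Oas1a were each at 1.59 CPM or less.

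The most abundant transcripts were those of mitochondria and of general cell functions. The 13 mitochondrial mRNA genes took 2.94% to 3.46% of the counts and the 76 cytosolic ribosomal protein genes 2.03% to 2.16%. mt-Co1 (11799 ± 296 CPM) and mt-Cytb (4687 ± 111 CPM) led the mitochondrial genes. Tuba1a (4125 ± 202 CPM), Eef1a1 (3754 ± 71.8 CPM), creatine kinase Ckb (2812 ± 141 CPM) and Eef2 (2247 ± 73.9 CPM) were, with Gfap, Scd2, Tnr and A2m, nuclear protein-coding genes among the 15 genes with the highest CPM. The nuclear entries Gm10925 (1894 ± 242 CPM) and Gm28661 (1779 ± 232 CPM) share every 50-base window with other genes, mostly mt-Atp6 and mt-Co2, and mt-Atp6 (1825 ± 206 CPM) and mt-Co2 (1788 ± 229 CPM) share 99.5% and 100% of theirs, so these 4 values are uncertain. The 18S ribosomal RNA gene Rn18s-rs5 held 0.142% of the counts in replicate 2 and 0.603% to 1.05% in the others.

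Xist, the noncoding RNA of the inactive X chromosome, was measured at 1183 to 1610.1 CPM (median 1506). The Y-linked genes Ddx3y, Uty, Eif2s3y and Kdm5d had 0 counts among the 192375524 of all 6 libraries. Of 1551 chromosome Y genes in the table, 9 had counts, and each of the 9 shares 50-base windows with another gene. The sex of the newborn mice used for culture is given neither by the labels nor by the methods.

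The replicates were close for most genes. Among the 10557 genes with a mean of at least 10 CPM, the median CV was 7.44% (quartiles 4.96% and 11.3%) and 79 genes exceeded 50%. The common biological CV estimated by edgeR was 0.152, and the variance between libraries was 7.99 times the counting variance for the median gene. The genes with the smallest CV were Fabp5 (0.769%), Skil (0.803%), Rab6b (0.818%), Tmbim6 (0.855%) and Dcaf12 (0.947%). Fabp5, a fatty acid binding protein, was at 296 to 302 CPM.

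**Figure D3:**
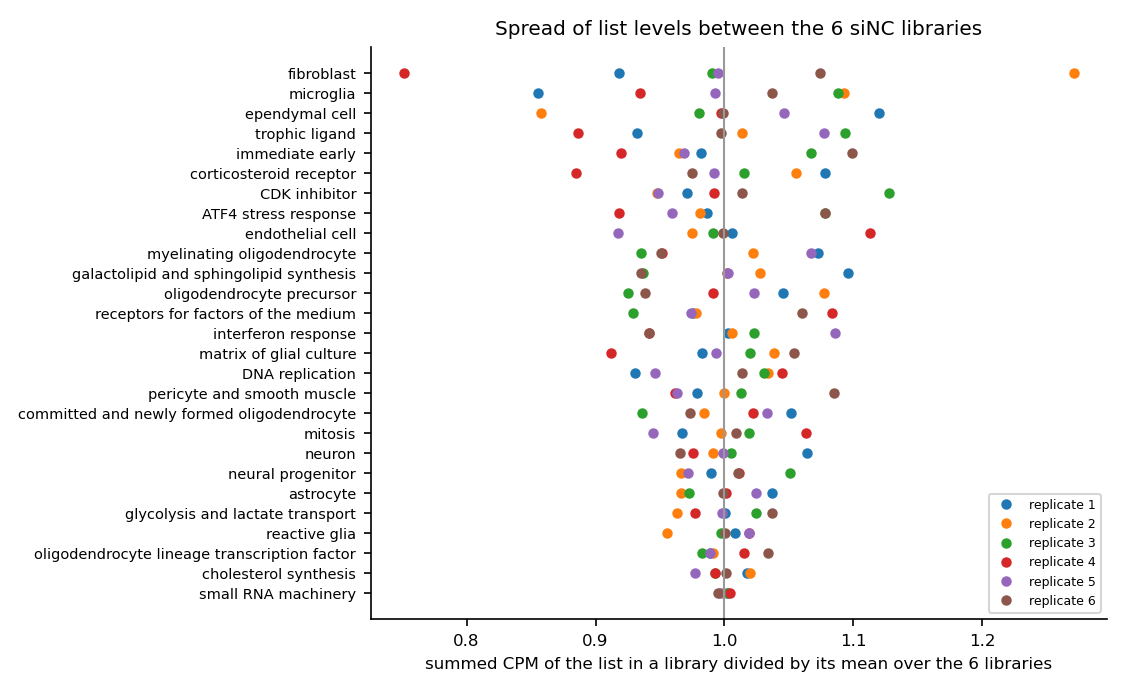
Summed CPM of each gene list in a library divided by its mean over the 6 siNC libraries (colours). Lists are ordered by their spread, from the fibroblast list (CV 17.2%) to the small RNA machinery list (CV 0.376%), and the Schwann cell and sex-linked lists are left out.

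Many genes placed the libraries in the same order. Replicates 1, 2 and 5 were all above replicates 3, 4 and 6 in 1151 of 10557 genes (10.9%). The reverse held in 1097 (10.4%). The division was noticed after the values were seen, and the labels give no batch for it. Shares of genes for other such divisions of the libraries are not given here. Of the 17 myelinating genes at 10 CPM or more, 5 had the first order (Mal, Cldn11, Ugt8a and Tspan2 among them) and none the second, of the 13 mitosis genes 4 had the second (Mki67, Top2a, Ccnb2 and Kif11) and none the first, and of the 18 glycolysis genes 5 had the second. Of the 13 mitochondrial mRNA genes, 8 had the first order and none the second. These 8 include mt-Co2 and mt-Atp6, whose counts are uncertain because of shared sequence, and mt-Atp8, which overlaps mt-Atp6. Cldn11 was at 1169, 1089.8, 905, 983, 1174 and 989 CPM in replicates 1 to 6, and Mki67 at 298, 316, 330.2, 350.5, 296 and 328 CPM. The newly formed OL list had 3 of 11 genes in the first order (Bmp4, Enpp6 and 9630013A20Rik) and none in the second. The DNA replication list had 3 of 12 in the second (Mcm2, Rrm2 and Tyms), the reactive glia list 2 of 15 (Lcn2 and Vim) and the receptor list 2 of 9 (Insr and Lifr), with none in the first. Some lists had genes in both orders. In the precursor list, 2 of 10 genes had the first order (Ptprz1 and Lhfpl3) and 1 the second (Cspg4). In the cholesterol synthesis list, 2 of 15 genes had each order. In the astrocyte list, 3 genes of 18 had the first order and 2 the second, in the lineage transcription factor list 1 of 8 the first and 2 the second (Olig1 and Olig2), and in the progenitor list 2 of 10 the first and 4 the second (Nes, Fabp7, Emx2 and Nr2e1). The part of any batch in these values was not tested.

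A further group of genes had separate levels. A gene was counted here when its neighbouring libraries, ordered by level, were at least 2-fold apart at some point on the scale of log2(CPM + 0.5), a rule chosen after the values were seen. This held for 187 of 10557 genes (1.77%). Their median gap was 1.35 log2 units, while the wider of the ranges within a level had a median of 0.30 log2 units. The gap set 1 library above the others in 23 genes and 1 library below the others in 95. In all, 48 different sets of libraries were above the gap. Only 2 of the 243 list genes at 10 CPM or more were among them, Hopx and Fgf2, and their share (2 of 243) is not above that of all genes.

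Scd2, a desaturase that makes monounsaturated fatty acids, was measured at 1985, 2004, 2009, 7107, 2013 and 2093 CPM in replicates 1 to 6. Its mean of 2869 CPM is thus set by replicate 4, since the other 5 libraries lay within 1985 to 2093 CPM. Fgf2, a growth factor for precursors, was at 12.4, 13.6, 86.8, 70.7, 83.4 and 12.8 CPM, high in replicates 3, 4 and 5. Several genes of other functions, chosen after their values were seen, were split in other ways. The GTPase Rac1 was at 148, 559, 552, 551, 150.4 and 555 CPM, low in replicates 1 and 5. Gpx1, a peroxide-reducing enzyme, was at 228, 21.2, 217, 235, 30.8 and 264 CPM, low in replicates 2 and 5. Pcyt1a, an enzyme of phosphatidylcholine synthesis, was at 139, 40.5, 41.4, 41.5, 136 and 140.3 CPM, high in replicates 1, 5 and 6.

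**Figure D4:**
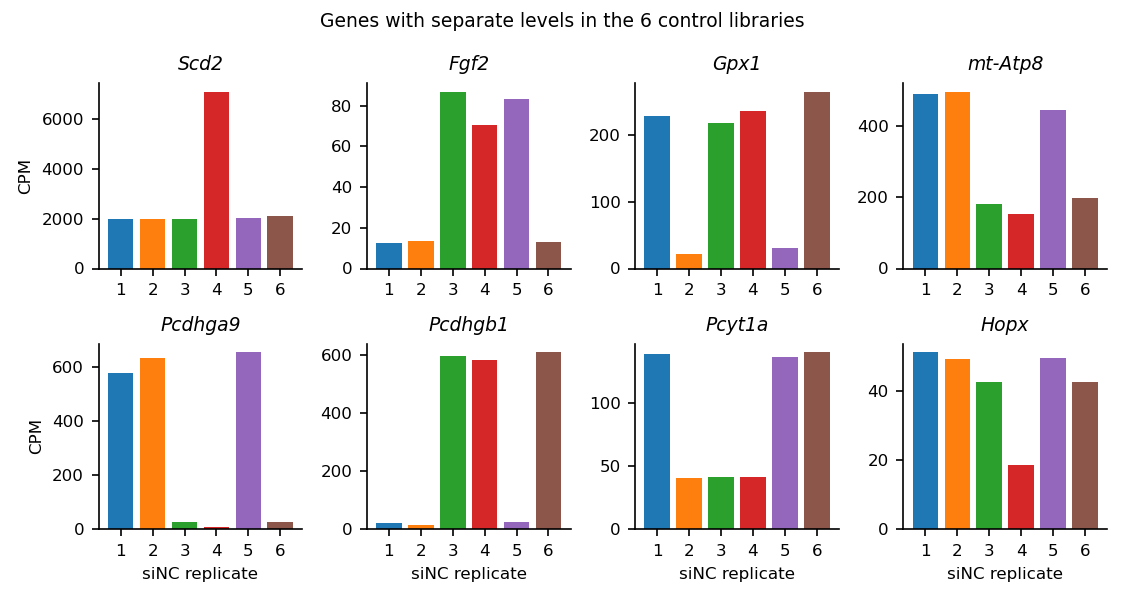
CPM of 8 genes in siNC replicates 1 to 6, each panel with its own axis from 0. Scd2 is high in replicate 4, Hopx low in replicate 4, and Pcdhga9 and Pcdhgb1 are high in opposite sets of libraries.

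The protocadherin genes Pcdhga9 and Pcdhgb1, variable first exons of a gene cluster that are spliced to the same constant exons, changed places. Pcdhga9 was at 578, 634, 27.0, 7.81, 654 and 25.8 CPM and Pcdhgb1 at 19.96, 15.1, 595, 581, 24.3 and 608 CPM. Their sum stayed at 589 to 678 CPM, and the sum over the 22 genes of the gamma cluster at 1595 to 1705 CPM (CV 2.45%). Pcdhga9 shares 39.1% and Pcdhgb1 61.0% of their 50-base windows with other genes, so their single counts are uncertain.

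mt-Atp8 had the same set of libraries above the gap as Pcdhga9, with 490.1, 496, 180.5, 153, 444 and 198 CPM in replicates 1 to 6. It is a short mitochondrial gene (204 bases, chrM:7766-7969, + strand, GRCm38) whose end overlaps the start of mt-Atp6. Its sequence is shown because 43 of its bases, in capitals, belong to both genes, so that a read reaching into them overlaps both. None of its 50-base windows lies wholly in another gene.
mt-Atp8: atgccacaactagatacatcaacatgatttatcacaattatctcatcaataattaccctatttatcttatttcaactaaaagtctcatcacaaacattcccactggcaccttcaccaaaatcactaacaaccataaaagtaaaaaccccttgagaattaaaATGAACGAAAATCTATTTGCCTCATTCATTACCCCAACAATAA

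The 10 genes with the largest CV were Gm20634, Pcdhgb8, Gm21451, Fam177a, B4gat1, Gm21982, Gm38431, Hnrnpa3, Ttpal and Pcdhga9. Gm20634 was at 80.0 CPM in replicate 1 and at 0.228 CPM or less in the others, and without replicate 1 its mean fell from 13.4 to 0.0804 CPM. Hnrnpa3, an RNA-binding protein, was at 176 CPM in replicate 2 and at 21.3 to 34.8 CPM in the others, with a mean of 27.97 without replicate 2. Ttpal was at 54.4 CPM in replicate 1 and at 7.87 to 12.8 CPM in the others, with a mean of 10.1 without it. Gm21451 had counts in replicates 2 (34.7 CPM) and 3 (29.1 CPM) and none elsewhere, and Fam177a in replicates 1 (35.1 CPM) and 5 (31.96 CPM) and none elsewhere.

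Without the library that decides it, the mean of Pcdhgb8 fell from 19.8 to 7.46 CPM (replicate 5), of B4gat1 from 15.4 to 7.29 CPM (replicate 4), of Gm21982 from 14.2 to 9.18 CPM (replicate 4) and of Gm38431 from 22.7 to 13.5 CPM (replicate 5). The mean of Gm21451 fell from 10.6 to 5.81 CPM without replicate 2 or 6.94 CPM without replicate 3, and that of Fam177a from 11.2 to 6.39 CPM without replicate 1 or 7.01 CPM without replicate 5. Of these 10 genes, Ttpal shares no 50-base window with another gene, and the others share 27.1% (Hnrnpa3) to 98.5% (Fam177a). Among all genes with separate levels, 65.0% share at least 1 window with another gene, against 48.3% of all genes at 10 CPM or more. Of the 5399 genes at this level that share none, 63 (1.17%) had separate levels. The part of shared sequence in these levels was not tested beyond these counts.

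**Figure D5:**
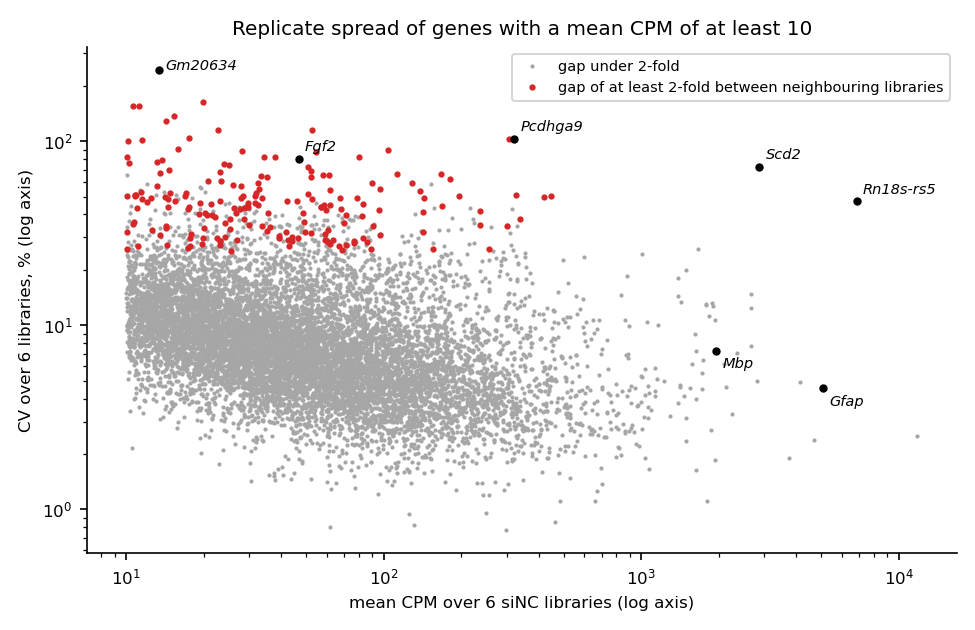
CV over the 6 siNC libraries against mean CPM (both log axes) for the 10557 genes with a mean of at least 10 CPM. Red points are genes with a gap of at least 2-fold between neighbouring libraries, and black points are named genes, among them Gm20634, Pcdhga9, Scd2, Fgf2 and Rn18s-rs5 with such a gap; Gfap and Mbp have a CV of 4.54% and 7.28%.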

How the data were processed

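Total RNA for 12 libraries was extracted with TRIzol, cleaned up with DNase treatment and sequenced on the Illumina platform with reads of 50 bases. The authors deposited raw counts per gene symbol, 1 column per library, with no normalization. The submitters' processing notes name the build mm10. The aligner, the counting program, the annotation, the strand setting and any selection of polyadenylated RNA are not given in the sources used here, so counts of overlapping or near-identical genes are uncertain, and CPM per kilobase assumes reads along the whole transcript.

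The 6 siNC columns were analyzed, and the 6 siEgr2 columns were not used. Groups and replicate numbers came from the sample titles. The table names 56860 genes plus 1 blank entry with 0 counts (left out). Depth was 28682946 to 39383014 counts per library, at which 3 counts equal 0.0764 to 0.104 CPM. Libraries were scaled by TMM (edgeR 4.0.16 in R 4.3.3, with Python 3.11.15 and pandas 2.3.3), and the biological CV came from an intercept-only design, tested on simulated data. Lengths were the union of exons of GENCODE M21 (GRCm38), which matched 97.4% of detected genes. Shared sequence was searched in 50-base windows of the sense strand.

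With a single group there was no test between groups, and levels are described by mean, SD, range and overlap; single libraries that stood apart were marked by Dixon's 95% criterion. The members and lists were chosen with earlier results of these data known. The genes named were Egr2, the 7 markers, the 15 genes highest by CPM and the 15 protein-coding genes highest per kilobase, in each list the 4 highest and 2 lowest (all for lists of up to 12), the 10 genes with the largest and 5 with the smallest CV, and 5 sex-linked genes. Some list genes are counted with their lists but are not reported here by name. Alternatives were other scaling, other filters, other lengths, thinning, omission of structural RNA genes or of the top gene of a list, and each library left out.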

Additional observations from a re-analysis of the deposited data

Results flagged for a closer look

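The 295 quantities checked were the totals, the list sums, the shares of counts by gene class and the genes of the naming rule. For each, the highest or lowest of the 6 libraries was compared with its neighbour. A library stood apart when this gap was too large a part of the whole range by Dixon's 95% criterion. This held in 28 of the 295 quantities. Chance alone flags about 1 in 20 such groups, but 15 of the genes were named for their largest or smallest CV and 7 of the 28 are among these, so the number is not read against chance. Over all 10557 genes with a mean of at least 10 CPM, the share was 7.31%.

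In replicate 1, Gm20634 (80.0 CPM), Ttpal (54.4 CPM), Skil (62.5 CPM) and Tekt1 (2.98 CPM) were above the other 5 libraries. Skil differed little in size, since the others were at 61.1 to 61.4 CPM. In replicate 2, Hnrnpa3 (176 CPM) was above the others, and the reactive glia sum (6021 CPM), Tcf7l2 (79.9 CPM) and Notch3 (34.3 CPM) were below them. In replicate 3, the sum of the CDK inhibitor list (530.3 CPM), Ifit3 (8.32 CPM) and Usp18 (1.53 CPM) were above, and Cacng4 (183 CPM) was below.

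Replicate 4 stood apart most often. Scd2 (7107 CPM), B4gat1 (55.8 CPM) and Zfp488 (148 CPM) were higher there than in the others. Hopx (18.5 CPM), Sparc (481 CPM), the stress regulator Atf4 (91.3 CPM), Ago1 (119 CPM), Sptlc1 (46.3 CPM) and Isg15 (0.469 CPM) were lower. In replicate 5, Pcdhgb8 (81.8 CPM) and Tmbim6 (468 CPM) were above the others, and the lipid enzymes Dhcr7 (101 CPM) and Degs1 (68.2 CPM) were below them. In replicate 6, the total of 39383014 counts, Olig1 (1373 CPM) and Rplp1 (525 CPM) were above the others.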

How the results depend on the processing

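No paired analysis was possible because a single group is described, so that replicate numbers pair nothing. Library size alone and RLE size factors moved no level or list sum by more than 1 SD, and neither the common biological CV nor the number of genes with a CV over 50% past its limit. Thinning to the smallest total was applied to 4 results and changed none of them past these limits, with 15689 detected genes, a common biological CV of 0.1503, 76 genes with a CV over 50% and 183 with separate levels. Leaving structural RNA genes out of the totals moved 1 value past 1 SD, the small RNA machinery sum, from 1027 to 1035 CPM.

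Without its highest gene, the sum of each cell type list moved by more than its SD. The precursor sum became 1987 CPM, newly formed OL 2958, myelinating 7447, lineage transcription factor 2046, astrocyte 9346, microglia 12.6, neuron 206, endothelial 50.02, fibroblast 730.4, pericyte 226, ependymal 15.4, progenitor 1264 and Schwann cell 4.74 CPM. With the longest transcript as length, the CPM per kilobase was 406 for Mbp, 81.3 for Pdgfra, 1920 for Gfap and 199 for Aqp4.

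The common biological CV was 0.207 with no filter on low counts and 0.148 to 0.155 with 1 library left out. With a mean of at least 1 CPM, 311 genes had a CV over 50%. Genes with separate levels numbered 66 at a gap of 3-fold, 434 at 1.5-fold, 63 among genes with no shared window and 68 at a mean of at least 50 CPM, a rule and alternatives chosen after the data were seen.

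Depth limits genes below about 0.1 CPM, where 1 library holds 3 counts. The number of libraries limits the precision of every SD, and the labels do not tell technical from biological spread.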

Other observations

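Genes of the ATF4 response to amino acid shortage and of trophic signalling were also expressed in the siNC cultures. All 10 ATF4 genes were detected and 7 exceeded the median gene, with a list median of 17.6 CPM per kilobase. The serine synthesis genes Psat1 (301 ± 16.4 CPM) and Phgdh (94.5 ± 4.80 CPM), the cystine transporter Slc7a11 (217 ± 23.5 CPM) and asparagine synthetase (Asns, 73.5 ± 3.67 CPM) were above Ddit3 (13.4 ± 1.03 CPM), Atf3 (11.2 ± 1.27 CPM), Chac1 (6.13 ± 0.97 CPM) and Trib3 (5.47 ± 1.23 CPM). Sesn2 was measured at 68.4 ± 4.02 CPM. Atf4 itself was at 172, 174, 185, 91.3, 166 and 193 CPM in replicates 1 to 6, lowest in replicate 4. 47.8% of the windows of Phgdh are shared with other genes.

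Of 14 trophic ligands, all were detected and 5 exceeded the median gene. Igf2 (210.1 ± 37.7 CPM) and Pdgfa (85.8 ± 11.1 CPM), a ligand of Pdgfra, were the highest per kilobase, followed by Cntf (11.3 ± 2.43 CPM) and Tgfb2 (50.1 ± 3.58 CPM). 61.2% of the windows of Igf2 and 78.0% of those of Cntf are shared with other genes. Igf1 (4.92 ± 0.927 CPM) and Tgfb1 (2.501 ± 0.528 CPM) were the lowest per kilobase.

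The genes that process and use small RNAs had the most even summed level of all lists, 1027 ± 3.86 CPM (CV 0.376%). Per kilobase the nuclease Drosha (106 ± 5.43 CPM) and the exporter Xpo5 (131 ± 2.84 CPM) lay above the slicer Ago2 (218 ± 7.67 CPM). Ago1 was at 133 ± 7.45 CPM, Ago3 at 189.9 ± 7.70 CPM, Ago4 at 16.1 ± 1.11 CPM, Dicer1 at 167 ± 9.72 CPM, Dgcr8 at 48.1 ± 2.93 CPM and Tarbp2 at 16.9 ± 1.07 CPM. Single members varied more than the sum, with CVs of 2.17% (Xpo5) to 6.91% (Ago4).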
